A study of Mus musculus with 39 samples.

Results

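The genes described here encode subunits of voltage-gated sodium channels, and they were chosen by name as *Scn1a*, *Scn2a*, *Scn3a*, *Scn8a*, *Scn9a*, *Scn10a*, *Scn11a*, *Scn2b* and *Scn4b*. All probe sets annotated to one of these 9 genes were taken, which gave 25 of the 45037 probe sets tested and 9 of the 18193 genes with a probe set of their own. *Scn8a* and *Scn9a* had 5 probe sets each, *Scn2a* had 4, *Scn1a* and *Scn2b* had 3, *Scn3a* had 2, and *Scn10a*, *Scn11a* and *Scn4b* had 1. No member probe set was annotated to a further gene, and no filter on low values was applied, so that all 25 entered every test. Each gene is described by its brightest probe set over all 39 arrays, and the others are compared with it further on.

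RNA of mouse lumbar dorsal root ganglia (DRG) was hybridized to 39 Affymetrix Mouse Genome arrays, one number per probe set and array. The first set held 16 arrays of cells sorted at p0 (the day of birth) from pooled lumbar DRG, with 2 arrays for each of 2 populations of wild-type mice and of 3 mutants, Bax-/-, mlcNT3 and NT3-/-Bax-/-. The second held 11 arrays of wild-type p0 cells sorted separately from L1 and L5 DRG, with 2 arrays for GFPon cells of L1 and 3 for each other group. The third held 12 arrays of whole L1 and L5 DRG of wild-type adults kept for 5 weeks with or without a running wheel, with 3 arrays per group. All p0 mice carried the TrkCGFP transgene, a bacterial artificial chromosome that expresses green fluorescent protein (GFP) under control elements of TrkC, the receptor for neurotrophin 3 (NT3), and were labelled as a mixed 129/C57Bl6 background. Cells were sorted into GFPon, which were taken as proprioceptors, and GFPoff, which held the other cells of the ganglion and for which no size gate was described. NT3-/-Bax-/- mice lacked NT3 and also the proapoptotic gene *Bax*, whose loss keeps DRG neurons alive without NT3, and Bax-/- mice carried only the latter deletion and served as their controls. mlcNT3 mice expressed surplus NT3 from a skeletal muscle myosin light chain promoter. About 350 cells were sorted per array of the pooled set and 100 per array of the L1 and L5 set. The adult mice were labelled wild-type on the same background, were male C57Bl6 mice 5 weeks old at the start by the methods, and their DRG were not sorted. A TrkC sign stands in the adult titles as well, the same for all samples of a level, and the groups used here are level and wheel alone.

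Voltage-gated sodium channels open when the membrane is depolarized and carry the rising phase of the action potential. The pore is formed by a large alpha subunit, and smaller beta subunits with one membrane span bind to it and alter its gating and its place in the membrane. Among the alpha subunits of sensory neurons, *Scn1a* and *Scn8a* are known from large myelinated neurons, *Scn8a* being the main channel of nodes of Ranvier, while *Scn2a* and *Scn3a* are prominent in embryonic and newborn neurons. *Scn9a* is expressed in many DRG neurons and is best known for its role in pain, and *Scn10a* and *Scn11a* encode channels that resist tetrodotoxin and belong mostly to small nociceptive neurons. *Scn2b* and *Scn4b* encode beta subunits that are bound to the alpha subunit by a disulphide bond, and *Scn4b* is known as the subunit of resurgent current in fast-firing neurons.

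Several members are neighbours in the genome. In the RefSeq gene order of GRCm38.p6, *Scn3a* lies next to *Scn2a*, and *Scn1a* next to *Scn9a*, on chromosome 2. *Scn10a* and *Scn11a* are adjacent on chromosome 9, *Scn2b* and *Scn4b* are adjacent at another place on chromosome 9, and *Scn8a* lies apart on chromosome 15. RefSeq promoter windows were matched by symbol for 8 of the 9 members, with 10 windows in all, and *Scn3a* had none. Windows of 250 bases upstream of the transcript start are printed for the pair of adjacent beta subunit genes, of which *Scn4b* differed between the populations and *Scn2b* did not, and for *Scn1a* and *Scn11a*, which differed in opposite directions. The builds and places are chr9:45138374-45138623 (plus strand) for *Scn4b*, chr9:45117626-45117875 (plus strand) for *Scn2b*, chr2:66440838-66441087 (minus strand) for *Scn1a* and chr9:119825457-119825706 (minus strand) for *Scn11a*, all in GRCm38.p6, each written 5′ to 3′ on the strand of its gene, with a match to the RUNX motif TGTGGT or its complement ACCACA in capitals.
Scn4b: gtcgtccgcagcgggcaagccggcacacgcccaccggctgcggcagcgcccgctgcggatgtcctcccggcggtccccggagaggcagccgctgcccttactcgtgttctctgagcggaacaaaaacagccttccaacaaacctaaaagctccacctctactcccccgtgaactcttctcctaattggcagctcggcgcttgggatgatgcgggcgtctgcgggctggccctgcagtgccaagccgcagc
Scn2b: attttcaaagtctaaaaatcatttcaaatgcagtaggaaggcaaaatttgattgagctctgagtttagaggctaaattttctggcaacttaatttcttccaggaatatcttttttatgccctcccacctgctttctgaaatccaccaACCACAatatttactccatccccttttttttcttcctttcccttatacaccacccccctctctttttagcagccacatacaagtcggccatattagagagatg
Scn1a: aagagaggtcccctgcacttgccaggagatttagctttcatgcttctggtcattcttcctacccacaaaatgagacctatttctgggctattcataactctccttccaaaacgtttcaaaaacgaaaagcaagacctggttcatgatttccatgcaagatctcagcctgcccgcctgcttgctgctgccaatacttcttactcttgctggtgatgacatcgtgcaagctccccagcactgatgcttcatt
Scn11a: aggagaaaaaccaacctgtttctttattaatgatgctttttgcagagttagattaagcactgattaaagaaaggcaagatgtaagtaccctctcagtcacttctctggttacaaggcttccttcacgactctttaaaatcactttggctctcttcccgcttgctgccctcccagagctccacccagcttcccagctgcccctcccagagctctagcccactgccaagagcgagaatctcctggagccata

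RUNX was searched because *Runx3* marks proprioceptors and *Runx1* marks nociceptors, and ETS because the ETS factor *Etv1* is known from proprioceptors. The motif TGTGGT stood on either strand in 14% of the 32851 RefSeq windows of this length, the ETS motif CCGGAA in 12%, the GC box GGGCGG in 32.7% and the TATA box TATAAA in 12.4%. Of the 10 member windows, the RUNX letters occurred in that of *Scn2b* and in 1 of the windows of *Scn2a*, the TATA letters in the other window of *Scn2a*, and the ETS and GC box letters in none. The share of G and C was 66% in the *Scn4b* window and 38.4% in that of *Scn2b*, with 46.8% for *Scn1a* and 48% for *Scn11a*. These are letter matches only.

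Array medians were alike (6.02 to 6.18 on the log2 scale), and arrays of a group correlated at 0.972 or above over all probe sets. The lowest of these correlations was between the 2 NT3-/-Bax-/- GFPoff arrays, and the mlcNT3 GFPon replicate 2 array had the lowest upper quartile of the pooled set (8.38). RNA quality was read as the 3′ minus 5′ log2 signal of control probe sets. For *Gapdh* it was 3.15 to 4.14 in wild-type and 2.38 to 2.88 in NT3-/-Bax-/- pooled arrays, without overlap, and 1.98 to 3.53 in Bax-/- arrays. For *Actb* the wild-type and NT3-/-Bax-/- arrays overlapped. In adults, *Gapdh* was 1.70 to 2.02 in L1 wheel, 1.38 to 1.69 in L5 wheel and 1.38 to 1.55 in L1 no-wheel arrays. *Actb* was 1.54 to 1.94, 1.22 to 1.29 and 1.29 to 1.47 in the same order, so L1 wheel arrays overlapped neither group for either gene. The L5 no-wheel arrays (1.48 to 1.92 and 1.24 to 1.76) overlapped the L1 no-wheel arrays. The part of RNA quality in the results was not tested. The sorted labels were borne by their markers, since *Pvalb*, *Runx3* and *Ntrk3* (the gene of TrkC) were higher in wild-type GFPon cells by 7.02, 5.63 and 5.10 on the log2 scale, while *Trpv1* and *Runx1*, which mark nociceptors, were lower by -5.20 and -5.23. *Tac1* and *P2rx3*, the other nociceptor genes measured, did not pass the test there. The adult arrays hold whole ganglia, and in all 3 sets fewer cells of a type and less RNA per cell cannot be told apart.

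In wild-type p0 DRG, 4 of the 9 genes were higher in GFPon than in GFPoff cells and 2 were lower, where 8.95% of all probe sets were called, 5.12% higher and 3.83% lower (limma's moderated test, Benjamini-Hochberg adjusted over all probe sets). *Scn1a* reached 2559 and 2433 in GFPon and 159 and 170.5 in GFPoff cells, a log2 difference of 3.92 ± 0.44 (SE, adjusted p = 0.000132), or 15.2-fold. *Scn8a* reached 2744 and 2472 against 809 and 939, a difference of 1.58 ± 0.24 (adjusted p = 0.00124). The arrays of the populations did not overlap for either gene, and these are the alpha subunits known from large fibres. *Scn2a*, known from immature axons, followed with 1691 and 1823 against 359 and 277, a difference of 2.48 ± 0.19 (adjusted p = 9.06e-06). For the beta subunit *Scn4b* the GFPon arrays read 2503 and 2009 and the GFPoff arrays 302 and 365, a difference of 2.76 ± 0.45 (adjusted p = 0.00194).

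The tetrodotoxin-resistant channels ran the other way. *Scn10a* was 41.6 and 20.2 in GFPon against 1289 and 1311 in GFPoff cells, a log2 difference of -5.49 ± 0.52 (adjusted p = 3.83e-05), so that the GFPon values lay below the median of their arrays. *Scn11a* was 1188 and 709 in GFPon cells, well above that median, and 13707 and 13618 in GFPoff cells, a difference of -3.90 ± 0.69 (adjusted p = 0.00333). The remaining 3 genes did not pass the test in the wild type. *Scn3a* differed by 0.58 ± 0.27, with a 95% interval of -0.02 to 1.17 and without overlap of arrays. With only the pooled wild-type arrays in the fit *Scn3a* was called (adjusted p = 0.0267). The brightest *Scn9a* probe set read 3359 and 3848 in GFPon and 3009 and 3047 in GFPoff cells, a difference of 0.25 with an interval of -0.13 to 0.62. As the mean of its probe sets *Scn9a* was called, at 1.16 (adjusted p = 0.00192), and its probe sets disagreed, as given further on. *Scn2b* read 2589 and 2239 against 3081 and 2559, with overlapping arrays and a difference of -0.22 (-0.88 to 0.43). The median difference was 0.58 over the 9 genes and -0.07 over all probe sets.

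**Figure D1:**
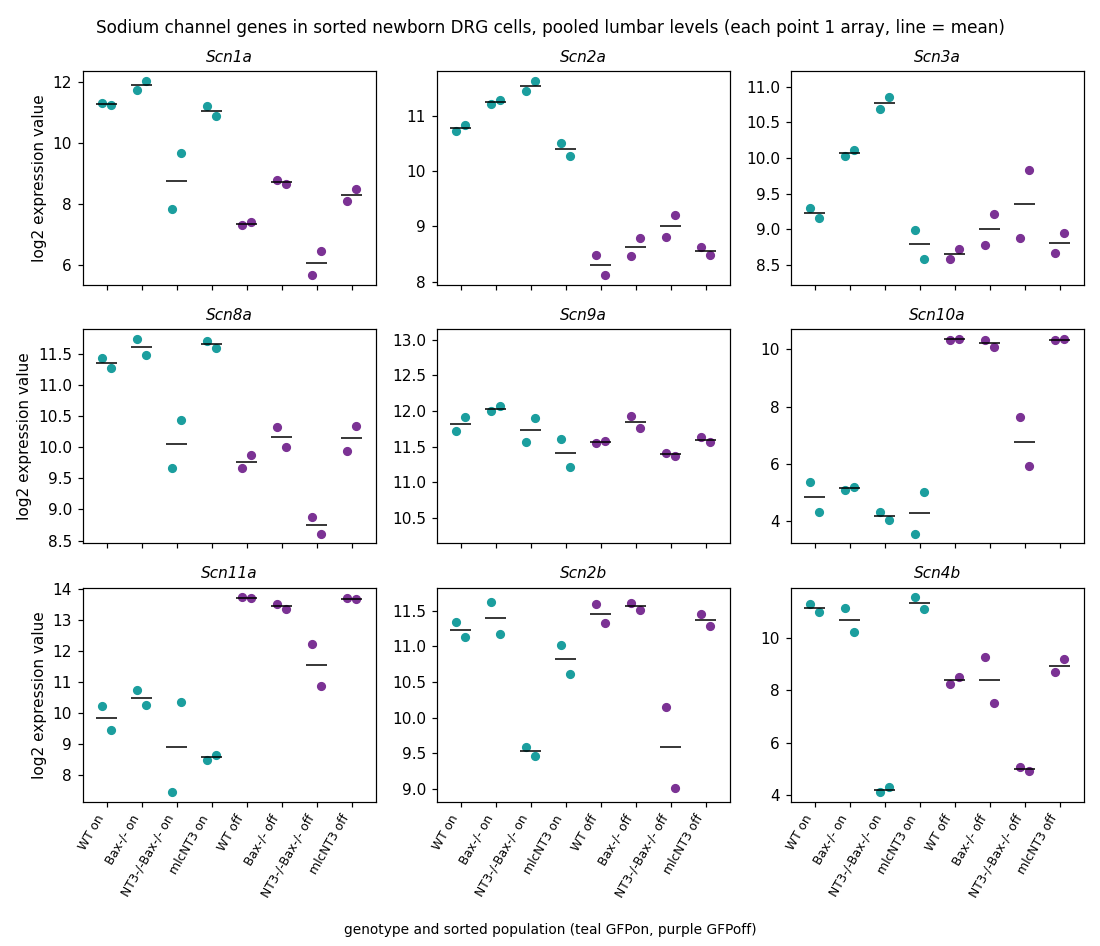
Expression of the 9 sodium channel genes in sorted p0 DRG cells of pooled lumbar levels. Each panel is 1 gene with its brightest probe set, each point 1 array on the log2 scale, each line the mean of 2 arrays, GFPon in teal on the left and GFPoff in purple on the right, and panels differ in their axis range. *Scn10a* and *Scn11a* are higher in GFPoff than in GFPon cells of every genotype, and the NT3-/-Bax-/- points for *Scn4b* lie near 4 to 5 in both populations while all other groups lie above 7.

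The division between the populations was seen again in the other genotypes and at each level, each with its own arrays. Non-neuronal markers differed between the populations too. In NT3-/-Bax-/- mice all 6 glial, 3 endothelial and 2 fibroblast markers measured were lower in GFPon cells. In wild-type mice 1 of 6 glial markers was higher and 1 lower, with 1 of 3 endothelial and 1 of 2 fibroblast markers lower. Of the 3 endothelial markers 2 were lower at L1 and 3 at L5. Their part in the result was not tested. In Bax-/- mice 5 genes were higher and 2 lower in GFPon cells, where 7.82% of all probe sets were called, 4.05% higher and 3.77% lower. In mlcNT3 mice 4 were higher and 2 lower (10% of all, 4.18% higher and 5.84% lower), and in NT3-/-Bax-/- mice also 4 and 2 (19.3% of all, 10.4% higher and 8.94% lower). In wild-type L1 DRG 4 were higher and 2 lower (17.9% of all, 9.03% higher and 8.92% lower), and in L5 DRG 5 and 2 (19.9% of all, 9.91% higher and 10% lower). *Scn1a*, *Scn2a* and *Scn8a* were higher, and *Scn10a* and *Scn11a* lower, in all 6 comparisons. With only its own 4 arrays in the fit the NT3-/-Bax-/- comparison kept the call of *Scn2a* alone, and those of *Scn10a* (adjusted p = 0.0828), *Scn1a* (adjusted p = 0.101), *Scn8a* (adjusted p = 0.103), *Scn3a* (adjusted p = 0.112) and *Scn11a* (adjusted p = 0.244) were lost. The difference of *Scn1a* ran from 2.69 in NT3-/-Bax-/- to 3.92 in wild-type cells, that of *Scn2a* from 1.84 in mlcNT3 to 2.62 in Bax-/- cells, and that of *Scn8a* from 1.28 at L1 to 1.60 at L5. *Scn10a* differed by -6.04 in mlcNT3 and by -2.59 in NT3-/-Bax-/- cells, and *Scn11a* by -5.51 at L1 and by -2.65 in NT3-/-Bax-/- cells. The Bax-/- call of *Scn11a* (-2.95, adjusted p = 0.0208) was lost without any 1 of its 4 arrays, with adjusted p of up to 0.117, and the NT3-/-Bax-/- call was lost without replicate 1 of either population, with -1.19 without the GFPon array.

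*Scn3a*, *Scn4b* and *Scn2b* varied more between these comparisons. *Scn3a*, which declines after birth in many neurons, was higher in GFPon cells in Bax-/- (1.07, adjusted p = 0.0311), NT3-/-Bax-/- (1.41, adjusted p = 0.00309), L1 (0.71, adjusted p = 0.00425) and L5 DRG (0.43, adjusted p = 0.0318), and was at -0.02 in mlcNT3 cells. Its Bax-/- call was lost without any 1 of the 4 Bax-/- arrays, at 0.85 to 1.29, and its L5 call without GFPon replicate 1 or any GFPoff array of L5, at 0.35 to 0.46. *Scn4b* was higher in GFPon cells in Bax-/- (2.29, adjusted p = 0.00762), mlcNT3 (2.39, adjusted p = 0.00469) and L5 DRG (1.92, adjusted p = 0.000187), at 0.82 at L1 (adjusted p = 0.0595, called without L1 GFPoff replicate 2 or L5 GFPoff replicate 1 or 2) and at -0.79 in NT3-/-Bax-/- cells (adjusted p = 0.268). Its L1 difference was also called with only the L1 arrays in the fit (adjusted p = 0.0395) and with a trend in the prior variance (adjusted p = 0.0287). Leaving out dim probe sets or taking the mean of probe sets called it as well (adjusted p = 0.0401 in each). The Bax-/- call of *Scn4b* was lost without GFPon replicate 1, at 1.83, and its mlcNT3 call without GFPoff replicate 1, at 2.14. With only the Bax-/- arrays in the fit the Bax-/- calls of *Scn4b* (adjusted p = 0.168) and *Scn3a* (adjusted p = 0.0841) were lost. As the mean of its probe sets *Scn3a* lost its L1 call, at 0.35, and its L5 call, at 0.21. *Scn2b* passed in none of the 6, with differences of -0.55 to 0.21.

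**Figure D2:**
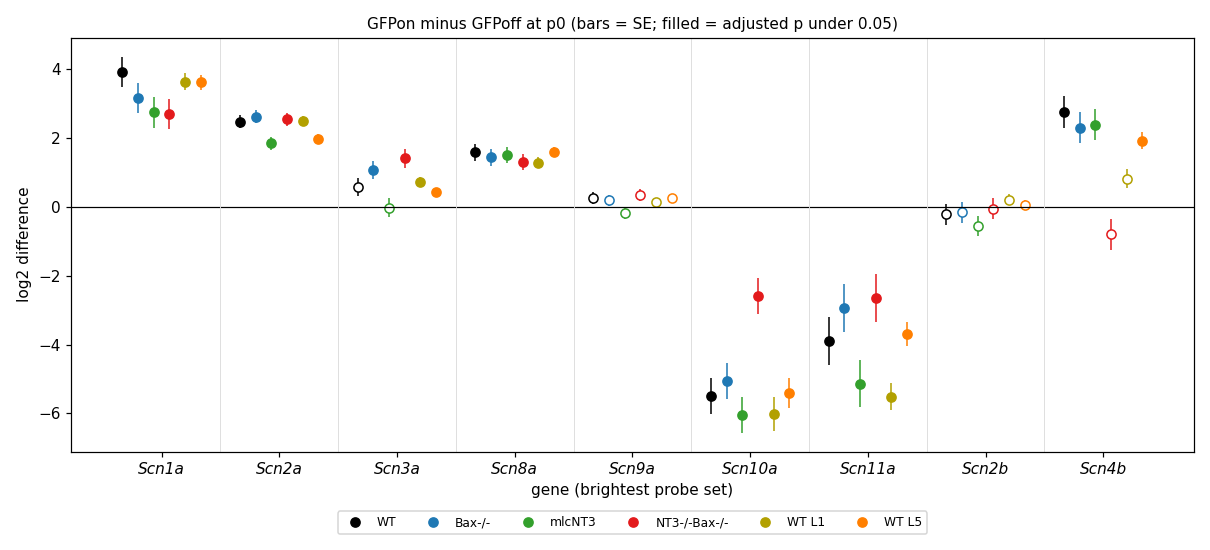
Differences between the sorted populations at p0. Each point is the log2 difference of GFPon minus GFPoff for 1 gene in 1 genotype or level, bars are limma's standard errors, and filled points have an adjusted p under 0.05. *Scn1a*, *Scn2a* and *Scn8a* lie above 0 and *Scn10a* and *Scn11a* below 0 in all 6 comparisons, and *Scn4b* is above 0 except in NT3-/-Bax-/- cells, at -0.79.

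The effect of removing NT3 was read by setting NT3-/-Bax-/- against Bax-/- GFPon cells. Here 4 of the 9 genes were lower, *Scn4b*, *Scn1a*, *Scn2b* and *Scn8a*, and none was higher, where 18.2% of all probe sets were called, 9.05% higher and 9.17% lower. The median difference was -1.55 over the 9 genes and 0.01 over all probe sets. *Scn4b* read 17.3 and 19.6 in NT3-/-Bax-/- against 2254 and 1188 in Bax-/- cells, a fitted log2 difference of -6.47 ± 0.45 (adjusted p = 4.82e-06). Values this low lie below the array median and were not shown to be above background, since detection calls were not used here, so the size of the fall is not given as a fold. *Scn1a* read 229 and 822 against 3430.1 and 4272, a difference of -3.14 ± 0.44 (adjusted p = 0.000496). The 2 NT3-/-Bax-/- arrays of *Scn1a* stood far apart, and without either of them the difference was between -4.07 and -2.22 and remained called.

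*Scn8a* read 814 and 1377 in NT3-/-Bax-/- and 3408 and 2838 in Bax-/- GFPon cells, a difference of -1.55 ± 0.24 (adjusted p = 0.000969). *Scn2b*, which did not separate the populations, read 768 and 709 against 3155 and 2316, a difference of -1.87 ± 0.30 (adjusted p = 0.00115). With only the 4 arrays of this comparison in the fit, *Scn1a* (adjusted p = 0.0543) and *Scn8a* (adjusted p = 0.0633) missed the threshold, and *Scn4b* and *Scn2b* kept theirs. The other 5 genes did not pass. *Scn2a* read 2789 and 3196 against 2387 and 2489.8, a difference of 0.29 (-0.12 to 0.71), and *Scn3a* read 1641 and 1853 against 1039 and 1110.1, a difference of 0.70 (0.11 to 1.29, adjusted p = 0.1), called without either GFPoff array of NT3-/-Bax-/- in the fit. *Scn9a* was at -0.30 and *Scn10a* at -0.96, and *Scn11a* at -1.60 with arrays of 174 and 1319 against 1703 and 1235, so that 1 array of NT3-/-Bax-/- cells fell within the range of the controls. Without that array *Scn11a* was called, at -3.06.

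Against wild-type GFPon cells, with the same NT3-/-Bax-/- arrays and therefore not as independent support, 4 genes were lower and 2 higher (26% of all probe sets called, 13.3% higher and 12.7% lower). The lower genes were *Scn4b* (-6.93 ± 0.45, adjusted p = 1.85e-06), *Scn1a* (-2.53 ± 0.44, adjusted p = 0.00134), *Scn2b* (-1.71 ± 0.30, adjusted p = 0.00136) and *Scn8a* (-1.30 ± 0.24, adjusted p = 0.00197). *Scn3a* was higher by 1.54 ± 0.27 (adjusted p = 0.0014), with wild-type arrays of 632 and 572. *Scn2a* was higher by 0.77 ± 0.19 (adjusted p = 0.0109), a call lost without NT3-/-Bax-/- replicate 2 or wild-type replicate 1, and lost as the mean of its 4 probe sets at 0.46. *Scn11a*, at -0.94, ran from -2.40 to 0.52 without 1 or the other NT3-/-Bax-/- array. Bax-/- cells lay between these groups for *Scn3a* and *Scn2a*. In Bax-/- against wild-type GFPon cells limma called none of the 9 (0.5% of all probe sets), 2 genes had an unadjusted p under 0.05, *Scn3a* (0.84) and *Scn2a* (0.47), and the methods' t-test at its thresholds took 1.

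In GFPoff cells the loss of NT3 was also accompanied by lower values. Of the 9 genes, 5 were lower in NT3-/-Bax-/- than in Bax-/- GFPoff cells and none was higher, where 21.7% of all probe sets were called, 9.91% higher and 11.8% lower, with a median of -1.90 over the 9 genes and 0.01 over all probe sets. *Scn10a* read 198 and 60.5 against 1292 and 1083, a difference of -3.44 ± 0.52 (adjusted p = 0.000759), and *Scn4b* read 34.0 and 30.0 against 611 and 182, a difference of -3.39 ± 0.45 (adjusted p = 0.000351). *Scn1a* was lower by -2.67 ± 0.44 (adjusted p = 0.00129), *Scn2b* by -1.97 ± 0.30 (adjusted p = 0.000767) and *Scn8a* by -1.42 ± 0.24 (adjusted p = 0.00152). The arrays of these 5 genes did not overlap between the genotypes, which adds little with 2 arrays per group, and the share of all probe sets without overlap was not counted. With only the arrays of this comparison in the fit *Scn2b* missed the threshold (adjusted p = 0.051). As the mean of its probe sets *Scn1a* missed it too, at -0.85 (adjusted p = 0.0623). *Scn11a* read 4825 and 1872 against 11811 and 10589, a difference of -1.90 (-3.40 to -0.39) that missed the threshold (adjusted p = 0.0715) and passed it without NT3-/-Bax-/- GFPoff replicate 1, at -2.58, or without either GFPon array of that genotype. *Scn3a*, at 0.36, was called without NT3-/-Bax-/- GFPoff replicate 1, at 0.83. The NT3-/-Bax-/- GFPoff values of *Scn10a* and *Scn11a* stayed above those of GFPon cells of the same genotype.

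The makeup of the NT3-/-Bax-/- GFPoff arrays moved with these values. The 2 fibroblast markers summed to between 6665 and 9557 on the linear scale, against 935 to 1285 in Bax-/- GFPoff cells, and both genes were called higher. The 3 endothelial markers summed to 1082 to 1121 against 188 to 296 and were all called higher, and the 6 glial markers measured summed to 22484 to 27005 against 12034 to 12462, with 3 higher and 1 lower. The 3 macrophage markers ran from 332 to 8525 against 155 to 1012, with none called. The 4 nociceptor markers measured summed to 10365 to 19845 against 18227 to 21147, with none called and *Runx1* at -1.43 (adjusted p = 0.0786). Of other neuron markers *Ret* was lower by -2.58, and *Ntrk3*, *Shox2* and *Ntrk2* were higher by 1.99, 1.44 and 1.22. The 5 pan-neuronal markers summed to 19698 to 22088 against 28106 to 32183, with 2 of them lower. Their part in the result was not tested. Centring every array on the pan-neuronal markers moved all log2 differences of this comparison by the same 0.47, so it cannot test the makeup. With that centring the same 5 genes were called lower, and *Scn2a* was called higher at 0.85. In GFPon cells the glial markers were instead lower in NT3-/-Bax-/- arrays (2454 to 5149.5 against 8020 to 10885, 5 of 6 called), and the same centring, a shift of 0.30, left the 4 calls there and added *Scn3a* at 1.00. Of the proprioceptor markers, *Pvalb* was lower in NT3-/-Bax-/- GFPon cells by -4.62 and *Runx3* by -0.999, and *Ntrk3* did not pass (0.15).

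Whether the change with NT3 loss differed between the populations was tested as the difference of the differences. *Scn4b* was the only gene of the 9 that passed, by -3.09 ± 0.64 (adjusted p = 0.00943, 9.65% of all probe sets called, 4.53% higher and 5.13% lower), falling further in GFPon cells. That value rests on NT3-/-Bax-/- readings of 17.3 to 34.0, below the array medians, and missed the threshold with only the 8 arrays of these groups in the fit (adjusted p = 0.092). *Scn10a* differed by 2.47 ± 0.74 (adjusted p = 0.056), where its GFPon values were low in both genotypes, and was called without NT3-/-Bax-/- GFPoff replicate 1 or either mlcNT3 GFPon array. For *Scn1a* (-0.47, interval -1.84 to 0.90), *Scn8a* (-0.13, -0.88 to 0.61) and *Scn2b* (0.10, -0.83 to 1.03) a difference of effect was not shown, and the interval for *Scn1a* is wide. Against wild-type GFPoff cells, a contrast added after the values were seen, *Scn10a* (-3.57), *Scn4b* (-3.38), *Scn11a* (-2.18), *Scn2b* (-1.87), *Scn1a* (-1.29) and *Scn8a* (-1.02) were lower in NT3-/-Bax-/- GFPoff cells and *Scn2a* (0.71) was higher, with 26.5% of all probe sets called.

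**Figure D3:**
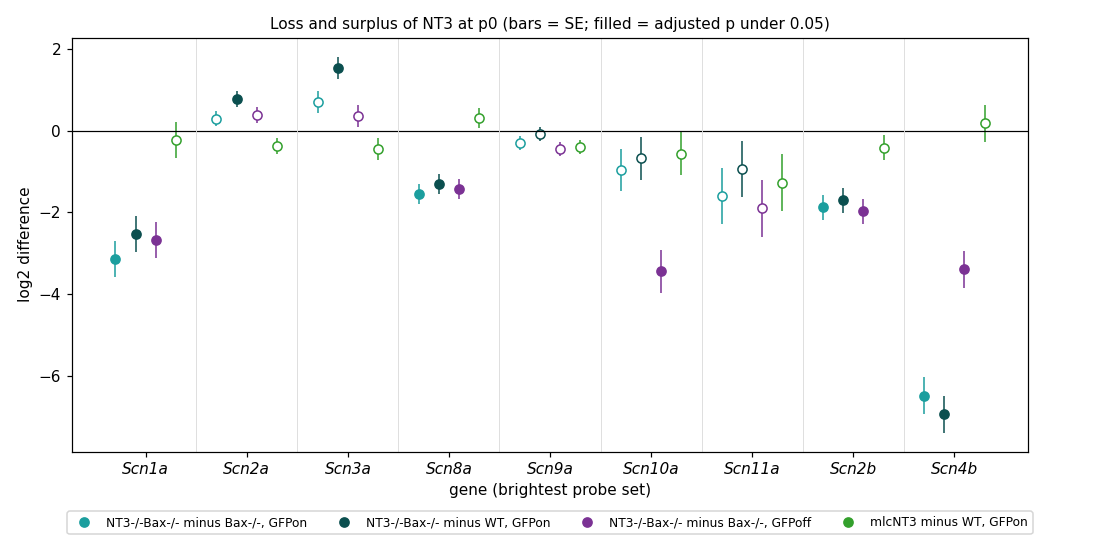
Loss and surplus of NT3 and the sodium channel genes. Each point is a log2 difference between genotypes at p0 for the brightest probe set of a gene, bars are limma's standard errors, and filled points have an adjusted p under 0.05. *Scn4b*, *Scn1a*, *Scn8a* and *Scn2b* lie below 0 in all 3 comparisons of NT3-/-Bax-/- cells, *Scn3a* and *Scn2a* above 0, and all mlcNT3 points are open.

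With surplus muscle NT3 no member was called in the fit of all pooled p0 arrays. In mlcNT3 against wild-type GFPon cells limma called none of the 9 genes (0.209% of all probe sets called), 1 had an unadjusted p under 0.05 (*Scn9a*, -0.40), and the methods' t-test took none. The 95% intervals show what could have been missed. That of *Scn4b* ran from -0.80 to 1.17, that of *Scn1a* from -1.19 to 0.74, that of *Scn8a* from -0.23 to 0.83 and that of *Scn11a* from -2.78 to 0.23. *Scn4b* read 2952 and 2198 in mlcNT3 and 2503 and 2009 in wild-type cells, with overlapping arrays. *Scn11a* read 361 and 399 against 1188 and 709, without overlap, at -1.27, and was called with only the arrays of these groups in the fit (adjusted p = 0.0363). In mlcNT3 against wild-type GFPoff cells none was called (0.00444% of all probe sets), none had an unadjusted p under 0.05 and the methods' t-test took none, and in Bax-/- against wild-type GFPoff cells none was called (0.178%), 1 had an unadjusted p under 0.05, *Scn1a* at 1.38 with arrays of 449.6 and 407 against 159 and 170.5, and the methods' t-test took 1. The difference between the populations in the effect of surplus NT3 was called for none (0.0422%), with 1 unadjusted p under 0.05.

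The 8 groups were ordered by their means in these same data and only neighbours were tested, so the steps are a description. Groups that are not neighbours can differ without a step, as the populations did for *Scn11a*. For *Scn1a* the order was Bax-/-, wild-type and mlcNT3 GFPon, then NT3-/-Bax-/- GFPon, Bax-/-, mlcNT3 and wild-type GFPoff and last NT3-/-Bax-/- GFPoff, and only the step from mlcNT3 to NT3-/-Bax-/- GFPon (adjusted p = 0.00198) and the last step (adjusted p = 0.0486) separated neighbours. *Scn8a* had steps below wild-type GFPon (adjusted p = 0.00806) and above NT3-/-Bax-/- GFPoff (adjusted p = 0.00848), and its NT3-/-Bax-/- GFPon level lay among the GFPoff groups. *Scn2a* had a single step, between the 4 GFPon and the 4 GFPoff groups (adjusted p = 0.000159), with NT3-/-Bax-/- highest within each population. *Scn2b* had a single step, between the 6 groups with NT3 and the 2 without (adjusted p = 0.00696). *Scn4b* had 3 blocks, the GFPon groups with NT3, the GFPoff groups with NT3 and both NT3-/-Bax-/- groups, split by steps with adjusted p = 0.0258 and adjusted p = 0.000263. *Scn10a* had steps on either side of NT3-/-Bax-/- GFPoff (adjusted p = 0.000759 above and 0.036 below), while *Scn11a*, *Scn3a* and *Scn9a* had no neighbours that differed.

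The likeness of these patterns is given as a description, by Pearson's r across the 8 group means, which share arrays and normalization. *Scn1a* and *Scn8a* had r = 0.98, *Scn10a* and *Scn11a* r = 0.98, *Scn2b* and *Scn4b* r = 0.78, and *Scn2a* and *Scn10a* r = -0.92. Outside the family, the genes most like *Scn1a* were *Lgi2* (r = 0.996), *Hmox2* and *Gjd2*, the gene of the gap junction protein connexin 36. Those most like *Scn8a* were *Ndufaf5* (r = 0.998), *Syt2*, a synaptotagmin, and *Rnft2*, and those most like *Scn4b* were *Stx11* (r = 0.998), *Myo1e* and *Wipf3*. *Scn10a* was followed most closely by *Mid1ip1* (r = 0.998), *Lgals3* and *Shisa5*, *Scn11a* by *Dclk3* (r = 0.995), *Prkcd* and *Klf7*, and *Scn2a* by 9530036O11Rik (r = 0.989), *Epha3* and E430016F16Rik.

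The 25 probe sets did not all speak alike for their gene. In wild-type cells 14 of the 25 were called between the populations, 12 higher and 2 lower in GFPon, where 5.12% of all were higher and 3.83% lower. For *Scn2a*, 3 of 4 were higher (2.00 to 2.48), for *Scn8a* 4 of 5 (1.39 to 2.21), and for *Scn1a* 2 of 3, with 1441728_at at 0.93 (adjusted p = 0.0599). Of the probe sets that stayed near 0, some were dim throughout. These were *Scn2a* 1445259_at at 27.0 to 69.5, *Scn8a* 1442208_at at 19.8 to 46.4, *Scn2b* 1457144_at at 23.1 to 43.5 and *Scn3a* 1421705_at at 9.87 to 15.9 over all 39 arrays. The brightest probe sets of *Scn9a* and *Scn2b* were not dim and were not called either. For NT3 loss in GFPon cells 11 probe sets were lower and none higher, where 9.17% of all were lower and 9.05% higher. Among the 11 were all 3 of *Scn1a*, 4 of 5 of *Scn8a* and 2 of 3 of *Scn2b*. In GFPoff cells 8 were lower, where 11.8% of all were lower. For *Scn1a* the call there was that of the brightest probe set alone, since 1441728_at was at -0.19 and 1450120_at at 0.31, and their levels there were 18.9 to 54.2.

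*Scn9a* gave the clearest disagreement. Its 2 brightest probe sets, 1442810_x_at and 1442809_at, differed between wild-type populations by 0.25 and 0.20 and were not called, and 2 dimmer ones were at 1.27 (not called) and 1.33 (called). The dimmest, 1421660_at, read 192 and 152 in GFPon and 23.6 and 27.0 in GFPoff cells, a log2 difference of 2.76 ± 0.37 (adjusted p = 0.00046). In NT3-/-Bax-/- GFPon cells it read 26.7 and 51.4 against 358 and 176 in Bax-/- cells, a difference of -2.76 ± 0.37 (adjusted p = 0.000349). Across the 8 group means 1421660_at had r = 0.949 with the brightest *Scn1a* probe set and r = 0.419 with the brightest *Scn9a* probe set, as a description. The sodium channel alpha subunits are close relatives, and whether a probe set also binds the transcript of a relative was not tested. As the mean of its 5 probe sets *Scn9a* was called between wild-type (1.16), Bax-/- (0.87), L1 (0.51) and L5 (0.65) populations. It was also called for NT3 loss in GFPon cells, at -0.74 (adjusted p = 0.0191). At L5 the brightest probe set, at 0.26, was called with a trend in prior variance, without dim probe sets or with a pseudocount of 16. No level or change of *Scn9a* as a gene is taken from either kind of probe set or from their mean.

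**Figure D4:**
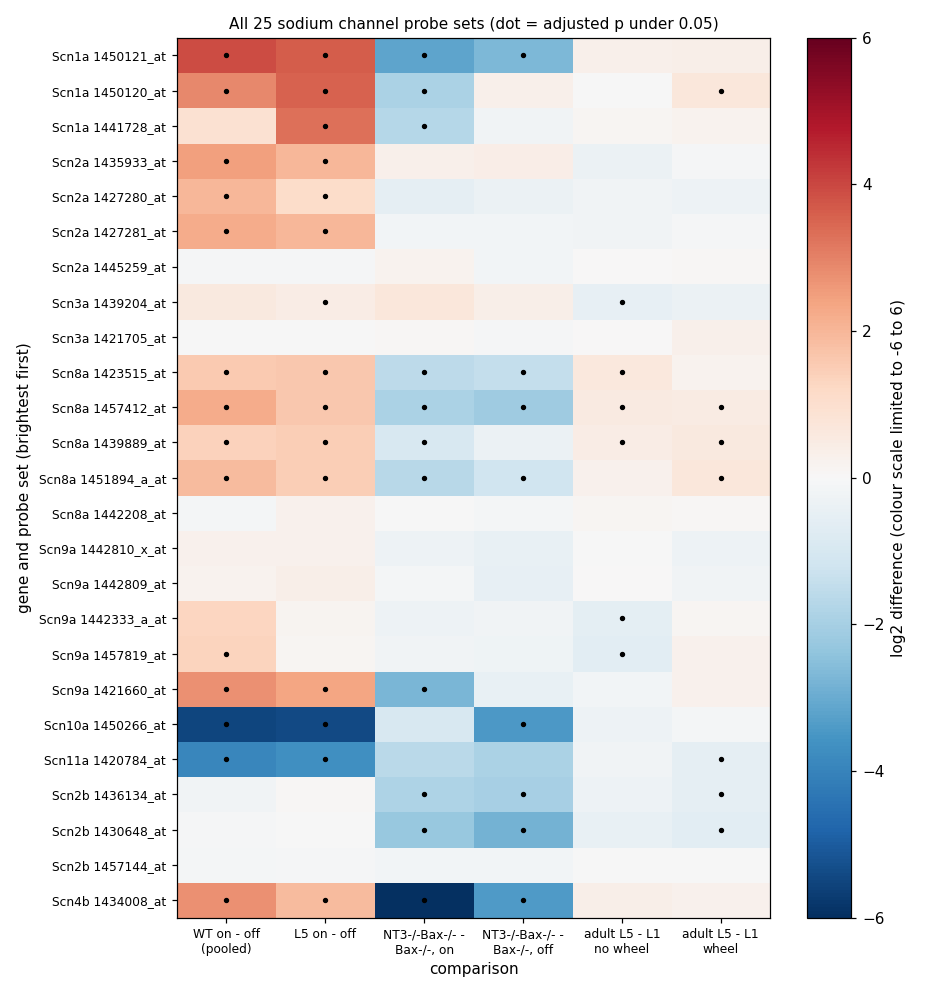
All 25 probe sets of the 9 genes in 6 comparisons. Rows are probe sets, brightest first within a gene, colours give the log2 difference on a scale limited to -6 to 6, and dots mark an adjusted p under 0.05. The *Scn9a* row 1421660_at is dotted for the wild-type populations and for NT3 loss in GFPon cells where the brightest *Scn9a* rows are pale, and the single *Scn4b* row goes from red to blue between the population and the NT3 comparisons.

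At p0 the lumbar levels L1 and L5 were compared within each population, L1 innervating trunk and hip and L5 the distal hindlimb. Limma called none of the 9 genes between L5 and L1 GFPon cells (0.397% of all probe sets called), although 4 had an unadjusted p under 0.05, and the methods' t-test took 1, *Scn4b*. With a trend in limma's prior variance *Scn11a* (adjusted p = 0.0317) and *Scn4b* (adjusted p = 0.0427) were called. *Scn4b* read 1544, 1764 and 2051 at L5 and 723 and 833 at L1, a log2 difference of 1.19 ± 0.27 (0.60 to 1.79, adjusted p = 0.116). *Scn11a* read 993, 1321 and 760.4 at L5 and 551 and 168 at L1, a difference of 1.72 ± 0.39 (adjusted p = 0.112), and without L1 GFPon replicate 1 it was called at 2.57. *Scn8a* read 2307, 2453 and 2917 against 1645 and 1899, a difference of 0.53 (adjusted p = 0.248), and *Scn3a* was at -0.33. The levels did not overlap for these genes, and L1 had 2 arrays. In GFPon cells the 2 fibroblast markers summed to 318 to 1000 at L5 and 99.4 to 156 at L1, without overlap. The 4 nociceptor markers measured summed to 10338 to 15194 and 10301 to 11738, with overlap. No marker on either list was called between these levels, and their part in the result was not tested. Of the 25 probe sets 1 was called, *Scn8a* 1451894_a_at, with 212, 237 and 268 at L5 and 113 and 90.4 at L1 (1.24 ± 0.16, adjusted p = 0.0111).

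Between L5 and L1 GFPoff cells none was called (0.16%), 1 had an unadjusted p under 0.05, *Scn2a* at 0.39, and the methods' t-test took none. The levels of *Scn10a* were 1368, 1353 and 1282 at L5 and 1271, 1115 and 1225 at L1, and those of *Scn11a* 12168 to 13421 and 13238 to 14572. The difference between populations in the level effect was called for none (0.0666%), with 3 unadjusted p under 0.05, *Scn11a* (1.81), *Scn4b* (1.10) and *Scn2a* (-0.53), and *Scn11a* was called at 2.67 without L1 GFPon replicate 1. Among L5 GFPon arrays *Scn10a* read 21.5, 81.6 and 17.6, so that replicate 2 stood above the others.

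In whole adult DRG the levels differed for few members, with 2 of the 9 called in each wheel group. Without a wheel, *Scn8a* was higher and *Scn3a* lower at L5 than at L1 (4.68% of all probe sets called, 1.92% higher and 2.76% lower). *Scn8a* read 1402, 1444 and 1709 at L5 and 815, 991 and 1151 at L1, a log2 difference of 0.63 ± 0.14 (adjusted p = 0.0212). *Scn3a* read 115, 117 and 104 against 135, 187 and 162, a difference of -0.51 ± 0.12 (adjusted p = 0.0198). The arrays of the levels did not overlap for either gene. Each call was lost without some single array, that of *Scn8a* without L1 replicate 1 or 2 or L5 replicate 3 (0.50 to 0.64) and that of *Scn3a* without L1 replicate 2 or 3 or L5 replicate 3 (-0.50 to -0.40).

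With a wheel, *Scn2b* and *Scn11a* were lower at L5 (5.43% of all probe sets called, 3.26% higher and 2.17% lower). The L5 and L1 wheel arrays also differed in RNA quality without overlap, as given above, and its part was not tested. *Scn2b* read 705, 767 and 709 at L5 and 1031, 1076 and 1048 at L1, a difference of -0.53 ± 0.08 (adjusted p = 0.00118), called without any 1 array. *Scn11a* read 4878, 5573 and 4726 against 5562, 8272 and 8509, with overlapping arrays, a difference of -0.54 ± 0.14 (adjusted p = 0.0392) that was lost without L1 replicate 2 or 3, any L5 array or replicate 2 of L1 without a wheel, with adjusted p of up to 0.163. Without a wheel *Scn2b* was at -0.28 (adjusted p = 0.0641) and *Scn11a* at -0.19, and with a wheel *Scn8a* was at 0.22 and *Scn3a* at -0.34. A difference between the wheel groups was not shown for any of them, since the difference in the level effect was called for none of the 9 (0% of all probe sets, with 1 unadjusted p under 0.05, *Scn2b*). With the pan-neuronal centring no member was called at either level comparison, with *Scn8a* at 0.63 (adjusted p = 0.0503) and *Scn2b* at -0.48 (adjusted p = 0.172).

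The other probe sets of *Scn8a* pointed the same way as the brightest, with 2 more called without a wheel (0.42 and 0.55) and 3 called with one (0.50 to 0.66). A dimmer *Scn2b* probe set was at -0.44 without (adjusted p = 0.0826) and at -0.64 with a wheel (adjusted p = 0.0115), and 2 *Scn9a* probe sets were lower at L5 without a wheel (-0.59 and -0.62) where its brightest was at -0.02. *Scn4b*, read at 2303, 2022 and 2420.3 at L5 and 1533, 1881 and 1887 at L1 without a wheel, differed by 0.35 (0.06 to 0.64, adjusted p = 0.169), and *Scn1a* by 0.33 in both wheel groups (adjusted p = 0.116 and adjusted p = 0.103, called with a wheel once L1 without a wheel replicate 1 was left out). *Scn10a*, at -0.29 without a wheel (adjusted p = 0.125), was called without L5 replicate 1. Markers of cell types moved with the level. The 3 proprioceptor markers summed to 1735 to 2242 at L5 and 1042 to 1127 at L1 without a wheel, with 2 of 3 called higher, and to 1950.3 to 2227 and 1098 to 1152 with one, with all 3 higher. The 4 nociceptor markers measured summed to 11324 to 12458 at L5 and 12251 to 14499 at L1 without a wheel, and 10698 to 12146 and 13151 to 15576 with one, with 1 and 2 of them lower. Their part in the result was not tested.

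**Figure D5:**
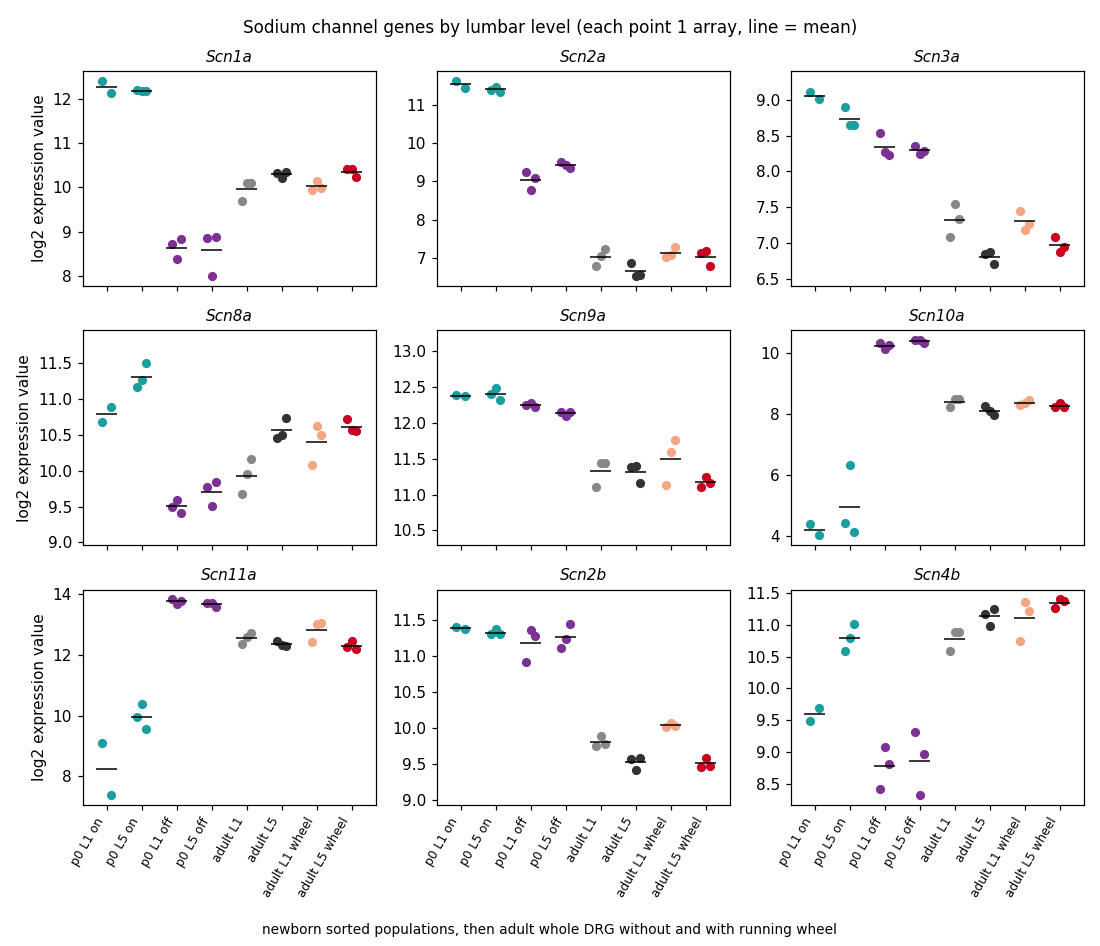
Sodium channel genes by lumbar level at p0 and in the adult. Each panel is 1 gene on the log2 scale, each point 1 array and each line a group mean, with sorted p0 cells on the left (teal GFPon, purple GFPoff) and whole adult DRG on the right, grey and black without and pale and dark red with a running wheel. The L5 and L1 points of *Scn8a* separate in adults without a wheel (1402 to 1709 against 815 to 1151), those of *Scn2b* in adults with one (705 to 767 against 1031 to 1076), and sorted and whole tissue are not compared with each other.

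Running itself was tested at each level. The L1 wheel and no-wheel arrays differed in RNA quality without overlap, and its part was not tested. At L1, limma called none of the 9 genes between wheel and no wheel (0.242% of all probe sets), 3 had an unadjusted p under 0.05 (*Scn8a* 0.47, *Scn4b* 0.33 and *Scn2b* 0.24), and the methods' t-test took none. Without L1 wheel replicate 1 these arrays gave 3 calls, *Scn8a* at 0.63, *Scn4b* at 0.50 and *Scn11a* at 0.48. That array read 1079.6 for *Scn8a* where the others of its group read 1578 and 1442. At L5 none was called (0.48%), 1 had an unadjusted p under 0.05 (*Scn2a*, 0.38), and the methods' t-test took none.

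Genes that work with the channel were counted from a list of 26, of which 19 were analysed here. The genes were chosen with results of these data known. In wild-type cells 4 were higher and 1 lower in GFPon, where 5.12% of all probe sets were higher and 3.83% lower, with a median of 0.14 over the list. *Fgf14* (2.14) and *Fgf11* (1.62), 2 of the 4 homologous factors that bind the tail of the alpha subunit, and *Nfasc* (1.93), the adhesion molecule neurofascin of nodes and initial segments, were higher, and *Atp1b3* (-1.61), a beta subunit of the sodium pump, was lower. *Fgf11* was higher in all 6 comparisons of the populations, from 1.39 at L5 to 1.63 in NT3-/-Bax-/- cells.

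With NT3 loss in GFPon cells 4 of the 19 were lower and none higher, where 18.2% of all probe sets were called, 9.17% lower, with a median of -0.22. These were *Fgf12* (-2.53), *Nfasc* (-1.31), *S100a10* (-1.21), which helps carry the *Scn10a* channel to the membrane, and *Fgf11* (-0.75). In GFPoff cells 5 were lower and 1 higher, where 21.7% of all probe sets were called, 11.8% lower and 9.91% higher, with *Atp1b3* (-1.95), *Scn7a* (-1.87), an atypical channel that senses sodium, *Cntn1* (-1.35) and *Ank2* (-1.17) the furthest lower. By limma, *Fgf12* was the only list member whose effect of NT3 loss differed between the populations (-1.81, adjusted p = 0.006). In the adult, *Fgf11* was higher at L5 by 1.55 without and 1.62 with a wheel, *Fgf14* by 0.88 and 1.09 and *Nfasc* by 0.50 and 0.65, while the beta subunit *Scn3b* was lower by -0.59 and -0.58. Of the 19, 3 were higher and 2 lower without a wheel (4.68% of all probe sets called) and 4 higher and 1 lower with one (5.43%). None of the 19 was called by limma in the comparisons of Bax-/- or mlcNT3 with wild-type cells, between p0 levels or with the wheel.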

How the data were processed

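RNA of sorted p0 DRG cells and of whole adult DRG was measured in 39 samples. The deposited values are expression intensities on a linear scale, 1 per probe set and array, made by the authors with RMA (background correction, normalization between arrays, summary per probe set) in the affy package of R 2.9. MAS5 detection calls were not used here. The plan had assumed log2 values, so log2 was taken with no pseudocount. The table had 45101 rows, and the 64 control rows of the array maker were dropped. Gene names came from GEO's platform annotation, with 34945 probe sets carrying 1 gene, 932 several and 9160 none. Group means were fitted with limma 3.58.1 (lmFit and eBayes, R 4.3.3) in 3 separate fits, for the pooled p0, the p0 L1 and L5 and the adult arrays. Every adjusted p is limma's, by Benjamini-Hochberg over 45037 probe sets, and called means an adjusted p under 0.05. The steps were tested on simulated data.

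The 9 members were named by gene, each with its brightest probe set, partner genes up to 4 per comparison among those called, and genes alike by the 3 highest correlations. Members and lists were chosen with earlier results of these data known. The samples are not stated to come from separate mice, so p-values measure the spread between samples, which may be technical. The methods name a t-test or, for NT3 loss, surplus NT3 and adult levels, an analysis of variance. Here a t-test between the groups compared, called the methods' t-test, was run for all of them (p up to 0.02, and a minimum fold of 2 for pooled populations and NT3 loss or 1.5 elsewhere). Other normalization, filters, pseudocount, prior and probe set rules, and leaving out each array were tried. The centring on pan-neuronal markers and the comparison of NT3-/-Bax-/- with wild-type GFPoff cells were added after the data were seen. Overlap of arrays was looked at for members only, so no share over all probe sets stands beside it. The number of arrays limits the precision.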

Additional observations from a re-analysis of the deposited data

Results flagged for a closer look

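The difference between GFPon and GFPoff cells in the change with NT3 loss, tested within limma's fit, passed for 3 sodium channel probe sets and 1 partner gene. Of all probe sets 9.65% passed. *Scn4b* differed by -3.09 ± 0.64 on the log2 scale (adjusted p = 0.00943), and missed the threshold with only the groups compared in the fit (adjusted p = 0.092). It fell in both populations to readings of 17.3 to 34.0, below the array medians, from a higher level in GFPon than in GFPoff cells. The dimmest *Scn1a* probe set, 1441728_at, differed by -1.52 ± 0.40 (adjusted p = 0.0311), but its GFPoff readings of 18.9 to 23.1 lay below the array medians in both genotypes, so that a fall there could not be measured, and the brightest differed by -0.47 (adjusted p = 0.737). The dimmest *Scn9a* probe set, 1421660_at, differed by -2.30 ± 0.52 (adjusted p = 0.016), with GFPoff readings of 20.6 to 40.6 that were likewise below the array medians, and the brightest differed by 0.15 (adjusted p = 0.783). *Fgf12*, which encodes a factor that binds the channel, differed by -1.81 ± 0.35 (adjusted p = 0.006). No group had the 4 arrays needed to test a single array against the rest of its group.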

How the results depend on the processing

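Leaving out 1 array at a time, the number of the 9 genes called stayed at 6 between wild-type populations and ran from 4 to 7 for Bax-/-, 5 to 6 for NT3-/-Bax-/-, 5 to 6 for mlcNT3, 6 to 7 for L1 and 6 to 7 for L5 populations. It ran from 4 to 5 for NT3-/-Bax-/- against Bax-/- GFPon cells, 5 to 6 against wild-type GFPon cells, 5 to 7 in GFPoff cells and 1 to 2 for the difference between populations. It ran from 0 to 1 for L5 against L1 GFPon cells and for the difference of that effect between populations, 0 to 3 for adult L5 against L1 without a wheel, 1 to 3 with one and 0 to 3 for the wheel at L1, and stayed at 0 for the other comparisons. After Benjamini-Hochberg the methods' t-test called 0 genes in the populations of all 4 pooled genotypes, in the 3 comparisons of NT3-/-Bax-/- cells and in both adult level comparisons. At its own thresholds it took 4 genes between Bax-/- populations, 1 between NT3-/-Bax-/- populations, 2 for NT3-/-Bax-/- against Bax-/- GFPon, 3 against wild-type GFPon, 0 in GFPoff cells, 1 each for Bax-/- against wild-type GFPon, Bax-/- against wild-type GFPoff and L5 against L1 GFPon, and 0 in both adult level comparisons. With only the groups compared in the fit, and so fewer arrays, 1 gene was called between NT3-/-Bax-/- populations, 2 for NT3-/-Bax-/- against Bax-/- GFPon, 1 for mlcNT3 against wild-type GFPon, 0 for the difference between populations in NT3 loss and 1 for adult levels without a wheel. That difference between populations had 2 genes called with dim probe sets left out, with a pseudocount of 16 or with the mean of a gene's probe sets. With a trend in the prior variance 2 genes were called for L5 against L1 GFPon and 1 for adult levels with a wheel, and with the pseudocount 1 for the latter. With the mean of probe sets 1 was called for adult levels without and 4 with a wheel, and with pan-neuronal centring 0 in both.

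Values that changed sign were *Scn9a* between wild-type populations (-0.00499) and in NT3-/-Bax-/- against Bax-/- GFPon cells (0.0047) with that centring, *Scn2a* in NT3-/-Bax-/- against Bax-/- GFPoff cells (-0.0762) and *Scn9a* between adult levels with a wheel (0.0124) as means of probe sets, and *Scn11a* with the wheel at L1 after quantile normalization (-0.0465). Leaving out 1 array also turned *Scn11a* in NT3-/-Bax-/- against wild-type GFPon cells (-2.40 to 0.52), *Scn3a* in NT3-/-Bax-/- against Bax-/- GFPoff cells (-0.12 to 0.83) and *Scn1a* in the difference between populations (-1.39 to 0.45). None of these 8 had been called, and the cause was not tested. Of 1261 single gene differences with an array left out, 1205 kept direction and side of the threshold, and of 872 under other alternatives 743 did.

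With the replicate number as a block, the number of genes called was that of the fit without it in every comparison, at 6 between wild-type, 7 between Bax-/- and 1 for the difference between populations. Whether numbers pair samples was checked by the correlation of deviations from group means, which was 0.0849 to 0.203 for L5 GFPon and GFPoff arrays of the same number, at most 0.0436 for different numbers, 0.0626 to 0.23 for L5 and L1 GFPoff arrays against at most 0.0765, and -0.241 to 0.202 among adult pairs. Among pairs of groups with 2 arrays it ran from 0.00768 (mlcNT3 GFPon and GFPoff) to 0.283 (Bax-/- GFPon and GFPoff), with 0.197 in wild-type and 0.158 in NT3-/-Bax-/- mice and 0.258 between mlcNT3 and wild-type GFPon cells. Not every pair passed 0.1 in any comparison with 3 pairs and no source states a pairing, so the samples were taken to share only a number.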
